A study of Homo sapiens with 54 samples.

Results

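GADD45B, CD83, and 8 further genes that answer to the transcription factor NF-kB were followed in OCI-Ly1 lymphoma cells carrying wild-type or mutant STAT6. The members were looked up by Ensembl identifier and made up 10 of the 31835 genes of the count table. GADD45B and CD83 were chosen by the change over time, in these same libraries, of their difference between STAT6 mutant and wild-type cells, so their levels across genotype and time are given as a description without a test. The other 8 (NFKBIA, NFKBIE, TNFAIP3, NFKB1, NFKB2, RELB, TRAF1, and BIRC3) were named as well-known NF-kB targets, and the question was whether they shared the time-dependent difference. Of the 10 genes, 7 had enough counts for the filter of the model across time points, whereas TNFAIP3, NFKB2, and TRAF1 did not, with medians of 1 to 7 molecules per library in each group.

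OCI-Ly1 cells were grown out long ago from a human B cell lymphoma. They had been transduced with a Flag-tagged STAT6 cDNA under the CMV promoter, either unchanged (STAT6 WT) or with N421K, D419N, or D419G (together STAT6 MUT), substitutions in the DNA-binding domain, and received a 20-min pulse of IL-4 (10 ng/ml) before washing and culture without it. RNA was taken 2, 4, or 8 h later, and each time had 9 STAT6 WT libraries beside 3 of each mutant line, 54 in all. All groups shared the parental line, whose own STAT6 gene carries another variant in the same domain, the constitutive promoter, and the IL-4 pulse, and neither unstimulated nor empty-vector libraries were analysed here. Unique molecular identifiers (UMIs), which count each captured mRNA molecule once, were read from the 3′ end, and levels are given as CPM, the UMI count scaled by the library total and the TMM factor.

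NF-kB is a family of dimers built from RELA, REL, RELB, and the processed products of NFKB1 and NFKB2. In resting cells IkB proteins such as NFKBIA and NFKBIE hold the dimers in the cytoplasm until the IKK complex, switched on by antigen receptor, CD40, Toll-like, or BAFF receptor signals, marks the inhibitors for degradation. Many targets feed back on the pathway, and in B cells NF-kB supports survival, activation, and antigen presentation.

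The libraries held between 161518 and 2978715 UMIs (median 885258.5), and 8 of them, 6 of STAT6 MUT and 2 of STAT6 WT, held less than 0.5 of the median. The 8 B cell markers examined were present in every library, CD79A at a mean of 503 CPM, whereas T cell, myeloid, erythroid, and fibroblast markers summed to at most 5.56 CPM in any library. Of the endothelial markers, PECAM1 was detected at a mean of 4.45 CPM. The summed level of 8 heat shock genes at 8 h was 6199 to 7967 CPM in STAT6 MUT and 7517 to 8275 CPM in STAT6 WT, whereas at 2 h it was 4996 to 6088 CPM and 4746 to 5601 CPM, and the part of these differences in the results was not tested. Libraries of different times lay in different plate rows, so time and row cannot be told apart. How many independent transductions were made is not given in the sources used here. A difference between genotypes therefore cannot be told apart from one between transduced populations, and p-values measure the spread between these libraries only. In bulk RNA, fewer expressing cells and less RNA per cell cannot be told apart.

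The bases before the annotated starts of GADD45B and CD83 are shown because both genes were chosen for the same kind of pattern, while the letters around their starts differ. Sequences are from RefSeq on GRCh38 and read 5′ to 3′. In the first pair, capitals mark matches to the kappaB consensus, searched on both strands, and overlapping matches run together.
GADD45B, chr19:2475877-2476126, plus strand: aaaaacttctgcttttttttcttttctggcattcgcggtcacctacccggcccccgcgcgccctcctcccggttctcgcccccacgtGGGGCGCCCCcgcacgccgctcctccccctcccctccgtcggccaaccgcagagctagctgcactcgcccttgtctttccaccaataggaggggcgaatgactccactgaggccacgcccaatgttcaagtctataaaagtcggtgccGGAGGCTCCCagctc
CD83, downstream start, chr6:14117522-14117771, plus strand: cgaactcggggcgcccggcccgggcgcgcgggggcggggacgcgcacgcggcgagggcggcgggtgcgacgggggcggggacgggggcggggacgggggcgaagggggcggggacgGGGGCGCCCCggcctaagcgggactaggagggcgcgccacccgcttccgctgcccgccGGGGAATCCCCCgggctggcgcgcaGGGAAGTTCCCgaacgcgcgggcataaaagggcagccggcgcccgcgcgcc
The upstream start of CD83 held no kappaB match in its window and is printed with capitals on the STAT6-type palindrome TTCNNNNGAA, which was not matched in the other window of CD83 or in that of GADD45B.
CD83, upstream start, chr6:14117006-14117255, plus strand: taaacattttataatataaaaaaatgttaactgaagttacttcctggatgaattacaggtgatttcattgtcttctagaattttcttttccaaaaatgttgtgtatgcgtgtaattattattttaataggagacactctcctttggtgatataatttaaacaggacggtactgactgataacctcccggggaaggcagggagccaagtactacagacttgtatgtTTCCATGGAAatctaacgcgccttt

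The search covered 250 bases before and 50 bases after each start. In the CD83 downstream window 6 overlapping kappaB matches fell in 3 places, beginning 134, 76, and 51 bases before the start, and in GADD45B matches began 163 and 15 bases before it. A second STAT6-type match began at base 13 of the transcript from the upstream CD83 start. Among 35116 such windows of all genes, 11.3% held a kappaB match and 6.44% a STAT6-type match, and a match is a run of letters, not evidence of binding. Windows were found for 8 of the 10 genes, and RELB and NFKBIE were the others. A kappaB match lay in at least 1 window of 7 of these 8 genes, TRAF1 being the exception, whereas CD83 alone had a STAT6-type match. CD83, NFKB1, NFKB2, and TRAF1 had more than 1 window, and most of the genes were named as NF-kB targets. These counts per gene are therefore not comparable with the shares per window. For 3 of the remaining genes with enough counts, the sites nearest to the start are shown in 30 bases, again with the kappaB match in capitals.
NFKBIA, minus strand, match beginning 81 bases before the start in the window chr14:35404700-35404999: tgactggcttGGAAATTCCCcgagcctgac
NFKB1, plus strand, match beginning 49 bases before the first of 2 starts in the window chr4:102501109-102501408: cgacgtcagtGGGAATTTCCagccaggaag
BIRC3, plus strand, match beginning 135 bases before the start in the window chr11:102317234-102317533: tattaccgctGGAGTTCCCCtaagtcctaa

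GADD45B encodes a stress-inducible protein that binds MAP kinase kinases and is known to restrain JNK signaling downstream of NF-kB. The gene lies at chr19:2476122-2478259 on the plus strand (ENSG00000099860). At 2 h, it was at 55.7 to 91.1 CPM (median 71.3) in STAT6 WT and at 28.9 to 58.3 CPM (median 37.8) in STAT6 MUT, and 8 of the 9 STAT6 MUT libraries were below every STAT6 WT library. At 4 h, the range was 51.4 to 85.5 CPM (median 64.2) in STAT6 WT and 57.0 to 105 CPM (median 73.0) in STAT6 MUT, with overlapping groups. At 8 h, STAT6 WT held 43.8 to 62.6 CPM (median 49.2) and STAT6 MUT 54.5 to 98.3 CPM (median 70.2). By then the order of the genotypes had turned, and 7 of the 9 STAT6 MUT libraries exceeded all those of STAT6 WT.

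As fitted log2 differences of STAT6 MUT from STAT6 WT, GADD45B stood at -0.86 (SE 0.11) at 2 h, 0.22 (SE 0.10) at 4 h, and 0.48 (SE 0.10) at 8 h. The change of this difference from 2 to 8 h was 1.33 (SE 0.16), and most of it, 1.08 (SE 0.15), lay between 2 and 4 h. Both time courses contributed, with a log2 change from 2 to 8 h of -0.47 (SE 0.10) in STAT6 WT and 0.86 (SE 0.12) in STAT6 MUT. The low levels at 2 h were found in each mutant line, with 37.8, 50.1, and 58.3 CPM in D419G, 28.9, 36.5, and 45.1 CPM in D419N, and 30.6, 31.7, and 41.7 CPM in N421K. At 8 h the D419N libraries stood at 78.4, 80.1, and 98.3 CPM, those of D419G at 67.6, 69.3, and 70.2 CPM, and those of N421K at 54.5, 60.7, and 74.4 CPM.

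CD83 encodes a surface glycoprotein of activated B cells and mature dendritic cells that stabilizes MHC class II and CD86. It lies at chr6:14117256-14136918 on the plus strand (ENSG00000112149). At 2 h it was at 589.8 to 705 CPM (median 639) in STAT6 WT and 502 to 727 CPM (median 558) in STAT6 MUT, and the groups overlapped. At 4 h STAT6 WT had dropped to 153 to 235 CPM (median 187), whereas STAT6 MUT was at 265 to 420.7 CPM (median 318), and no library of one genotype reached the range of the other. Among 9507 genes, 0.431% showed such separation at 4 h. At 8 h STAT6 WT was at 143 to 254 CPM (median 186) and STAT6 MUT at 206 to 391.8 CPM (median 284), and 6 of 9 mutant libraries exceeded all those of STAT6 WT.

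The fitted log2 difference of CD83 was -0.13 (SE 0.06) at 2 h, 0.77 (SE 0.08) at 4 h, and 0.57 (SE 0.11) at 8 h. It grew by 0.90 (SE 0.12) from 2 to 4 h and by 0.70 (SE 0.13) from 2 to 8 h. Unlike GADD45B, CD83 was lower at 8 h than at 2 h in both genotypes, by a log2 change of -1.78 (SE 0.09) in STAT6 WT and -1.07 (SE 0.09) in STAT6 MUT, so that the difference came from a smaller drop in the mutant cells. At 4 h, D419G stood at 359, 403, and 420.7 CPM, D419N at 265, 291, and 318 CPM, and N421K at 268, 286, and 345 CPM. At 8 h the lines were ordered otherwise, with D419G at 223, 237, and 304 CPM, D419N at 260.2, 387, and 389.7 CPM, and N421K at 206, 284, and 391.8 CPM. The values of 387, 389.7, and 391.8 CPM came from shallow libraries of 161518, 445800, and 191586 UMIs. In STAT6 WT the highest value at 8 h (254 CPM) came from 503528 UMIs and the lowest (143 CPM) from 2685091. The median total at 8 h was 743121 UMIs in STAT6 MUT and 1118772 in STAT6 WT. The part of depth in the line order and the genotype difference at 8 h was not tested.

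The difference among the 3 mutant lines is independent of the contrast that picked GADD45B and CD83 and was tested with terms for time and line. With edgeR's quasi-likelihood test and Benjamini-Hochberg adjustment over 9507 genes, 0 of the 7 genes were called, against 2.47% of all genes, and 1 of them (NFKBIA) had an unadjusted p under 0.05. DESeq2 and limma-voom also called 0 of the 7. The adjusted p was 0.825 for GADD45B and 0.852 for CD83. The log2 difference of D419N from D419G was -0.01 (95% interval -0.33 to 0.31) for GADD45B and -0.09 (-0.33 to 0.14) for CD83. Those of N421K from D419G were -0.15 (-0.45 to 0.15) and -0.11 (-0.34 to 0.11). This test compares the lines over the 3 times together, and a change of the lines' order with time was not tested. Its model had no term for a genotype difference that changes with time. For GADD45B and CD83 that change therefore counted as spread between libraries and widened their intervals. Their p-values cannot show that the lines were alike.

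**Figure D1:**
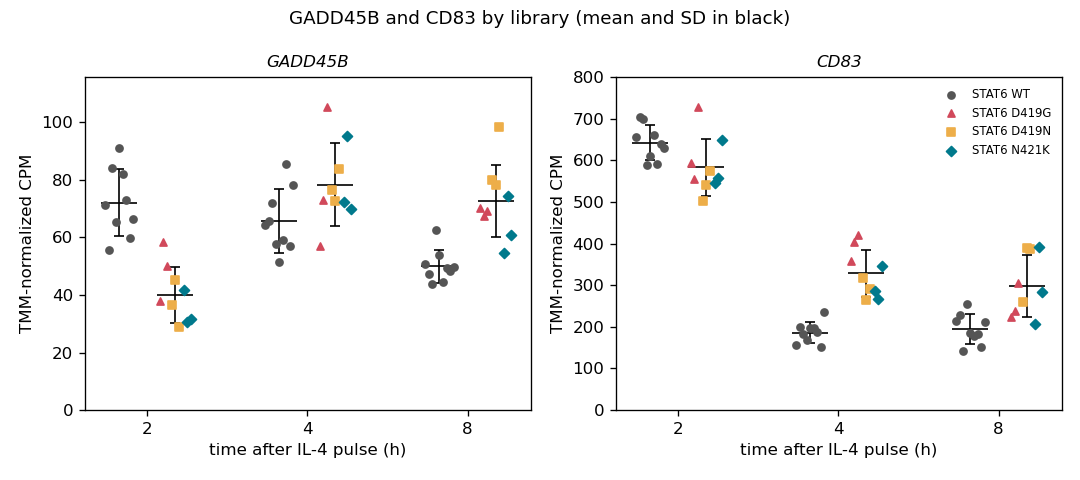
Levels of GADD45B (left) and CD83 (right) in TMM-normalized CPM against time after the IL-4 pulse in hours. Each symbol is a library, grey circles for STAT6 WT and colored symbols for the mutant lines, and black lines give the mean and SD of 9 libraries. GADD45B was lower in STAT6 MUT at 2 h (median 37.8 against 71.3 CPM) and higher at 8 h (70.2 against 49.2 CPM), whereas CD83 was separated at 4 h (265 to 420.7 against 153 to 235 CPM).

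Of the 8 other genes, the 5 with enough counts entered the joint test, and TNFAIP3, NFKB2, and TRAF1 did not. In the joint test that the STAT6 MUT difference is the same at 2, 4, and 8 h, 0.989% of 9507 genes were called, and 0 of these 5 were among them. DESeq2 and limma-voom likewise called 0 of them. In edgeR's test, 2 of the 5 had an unadjusted p under 0.05, BIRC3 (adjusted p = 0.274) and NFKBIE (adjusted p = 0.395). The adjusted p was 0.734 for NFKB1, 0.838 for RELB, and 0.933 for NFKBIA. Missing the threshold does not show that a gene kept the same difference at all times. The intervals of the change from 2 to 8 h are therefore given gene by gene. They are set beside the fitted values of GADD45B and CD83, which were picked by this change, so these values may be too large. The values have intervals of their own, 1.03 to 1.64 for GADD45B and 0.46 to 0.95 for CD83. No test compared the other genes with either.

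NFKBIA encodes IkB alpha, the best-known inhibitor of canonical NF-kB and a rapidly induced target of it. It was at 75.5 to 100.0 CPM (median 88.1) in STAT6 WT and 78.4 to 125 CPM (median 90.5) in STAT6 MUT at 2 h, and at 54.6 to 73.2 CPM (median 65.4) and 42.7 to 80.5 CPM (median 66.3) at 8 h, with overlapping genotypes each time. The log2 difference between genotypes was 0.09 (SE 0.09) at 2 h, -0.02 (SE 0.11) at 4 h, and -0.01 (SE 0.10) at 8 h, with adjusted p of 0.632, 0.964, and 0.996 in edgeR's test. Its change from 2 to 8 h, -0.09 with a 95% interval from -0.37 to 0.19, did not include the values of GADD45B (1.33) or CD83 (0.70). The gene lies at chr14:35401079-35404749 on the minus strand (ENSG00000100906).

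NFKBIE encodes IkB epsilon, an inhibitor that prefers REL- and RELA-containing dimers and is recurrently mutated in B cell lymphomas. At 2 h, its level was 24.1 to 36.4 CPM (median 29.3) in STAT6 WT and 3.76 to 34.3 CPM (median 19.6) in STAT6 MUT, and 6 of 9 STAT6 MUT libraries were below every STAT6 WT library. By line, the values were 3.76, 15.6, and 30.1 CPM in D419N, 15.3, 16.3, and 26.8 CPM in N421K, and 19.6, 23.0, and 34.3 CPM in D419G, so that each line had a library within the range of STAT6 WT. NFKBIE was the only one of the 5 genes called at 2 h, with a log2 difference of -0.53 (SE 0.15) and an adjusted p of 0.0146 in edgeR's test, where 4.67% of 8651 genes were called lower. It was called as well by DESeq2 (adjusted p = 0.0285) and limma-voom (adjusted p = 0.0129). The lowest value came from D419N replicate 2, a library of 274646 UMIs with 1 UMI of NFKBIE, and without the libraries of replicate 2 the log2 difference was -0.49 (adjusted p = 0.0392). Without N421K the adjusted p was 0.132, without replicate 1 it was 0.0502, and without replicate 3 it was 0.0566.

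At 4 h NFKBIE was at 18.3 to 40.6 CPM in STAT6 WT and 18.3 to 44.3 CPM in STAT6 MUT, and at 8 h at 23.0 to 50.1 CPM and 23.1 to 39.7 CPM. The differences at these times were -0.11 (SE 0.16) and -0.01 (SE 0.14) on the log2 scale, with adjusted p of 0.834 and 0.993. From 2 to 8 h the genotype difference moved by 0.52 (95% interval 0.09 to 0.94, adjusted p = 0.254), an interval that held the value of CD83 and lay below that of GADD45B. NFKBIE thus was lower in STAT6 MUT at 2 h like GADD45B, but at 8 h none of the mutant libraries exceeded all those of STAT6 WT. The gene lies at chr6:44258166-44265788 on the minus strand (ENSG00000146232).

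TNFAIP3 encodes A20, a ubiquitin-editing enzyme that shuts off signaling upstream of IKK. Its counts were low, with 189 UMIs in all 54 libraries, and 7 libraries had none, which allows levels of up to 2.65 to 16.6 CPM in those libraries (3 UMIs, counting error only). At 2 h it was at 0 to 4.38 CPM (median 2.20) in STAT6 WT and 3.67 to 13.7 CPM (median 5.78) in STAT6 MUT, and 7 of 9 mutant libraries exceeded all those of STAT6 WT. An exact permutation test of the log2 CPM at 2 h gave a two-sided, unadjusted p of 0.000288 for a difference of 0.95 (n = 9 each), the smallest of 9 such tests on the 3 genes with few counts. In edgeR's test without a count filter the log2 difference was 0.85 (SE 0.36) with an adjusted p of 0.236 over all genes, so that TNFAIP3 was not called. The difference was 0.12 at 4 h and 0.30 at 8 h on the log2 CPM scale (exact permutation p = 0.730 and 0.276). Its direction at 2 h was opposite to that of GADD45B. The gene lies at chr6:137867214-137883314 on the plus strand (ENSG00000118503) and shares 95 exonic bases with WAKMAR2 on the opposite strand, and as the strand used in counting is not given in the sources used here, molecules of the pair may not be told apart.

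None of the genotype differences of the subunit genes was called. NFKB1, which encodes p105 and p50, lies at chr4:102501330-102617302 on the plus strand (ENSG00000109320). It was at 47.6 to 66.8 CPM (median 56.6) in STAT6 WT and 42.8 to 56.4 CPM (median 51.4) in STAT6 MUT at 2 h, and at 53.8 to 70.2 CPM (median 59.8) and 44.03 to 74.0 CPM (median 64.7) at 8 h. The log2 difference was -0.15 (SE 0.10), -0.08 (SE 0.10), and 0.06 (SE 0.10) at 2, 4, and 8 h (adjusted p of 0.400, 0.805, and 0.848 in edgeR's test). Its change from 2 to 8 h was 0.21 (95% interval -0.04 to 0.46), below the fitted values of both GADD45B and CD83. The interval of CD83 itself began at 0.46, where that of NFKB1 ended.

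RELB encodes the subunit that pairs with p52 in the non-canonical pathway, and lies at chr19:45001461-45038192 on the plus strand (ENSG00000104856). At 2 h RELB was at 39.9 to 66.9 CPM (median 46.9) in STAT6 WT and 7.52 to 54.9 CPM (median 46.0) in STAT6 MUT. The lowest value again came from D419N replicate 2, and 4 of 9 STAT6 MUT libraries were below every STAT6 WT library. The log2 difference was -0.30 (SE 0.13, adjusted p = 0.146), followed by -0.18 (SE 0.17, adjusted p = 0.697) at 4 h and -0.02 (SE 0.16, adjusted p = 0.989) at 8 h, none of them called. The change from 2 to 8 h was 0.27 (95% interval -0.17 to 0.72), which reached the value of CD83 but not that of GADD45B. NFKB2, which encodes p100 and p52 (chr10:102394110-102402524, plus strand, ENSG00000077150), had 138 UMIs in all and was at 0 in 8 libraries, which allows 3.59 to 17.3 CPM there, and exact permutation tests gave p of 0.518, 0.116, and 0.772 at 2, 4, and 8 h.

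TRAF1 and BIRC3 act around the receptors, TRAF1 as an adaptor and BIRC3 (cIAP2) as a ubiquitin ligase that protects from cell death and keeps the non-canonical pathway in check. TRAF1 (chr9:120902393-120929173, minus strand, ENSG00000056558) had 270 UMIs and ranged from 0 to 12.6 CPM, with 2 libraries at 0 (which allows 14.9 and 16.6 CPM), and exact permutation tests of the genotypes gave p of 0.133, 0.679, and 0.228. BIRC3 lies at chr11:102317484-102339403 on the plus strand (ENSG00000023445) and shares 126 exonic bases with ENSG00000288528 on the opposite strand. At 2 h BIRC3 was at 111 to 162 CPM (median 131) in STAT6 WT and 112 to 154 CPM (median 127) in STAT6 MUT. At 4 h the ranges were 112 to 148 CPM (median 127) and 82.8 to 149 CPM (median 103), and 7 of 9 STAT6 MUT libraries were below every STAT6 WT library. The N421K libraries stood at 87.6, 101, and 103 CPM and those of D419N at 82.8, 90.2, and 108 CPM, all below STAT6 WT, whereas D419G was at 108, 113, and 149 CPM. At 8 h the ranges of the genotypes were 84.1 to 125 CPM (median 104) and 71.4 to 144 CPM (median 104).

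BIRC3 was the only one of the 5 genes called at 4 h, with a log2 difference of -0.36 (SE 0.08, adjusted p = 0.00472 in edgeR's test), where 2.01% of 8605 genes were called lower. The direction is opposite to that of CD83, which stood higher in STAT6 MUT at 4 h. At 2 and 8 h the log2 differences were -0.05 (SE 0.08, adjusted p = 0.788) and -0.07 (SE 0.09, adjusted p = 0.801). The change from 2 to 8 h was -0.03 (95% interval -0.27 to 0.20), below the values of GADD45B and CD83. The call at 4 h was lost without replicate 1 (adjusted p = 0.0633), without replicate 2 (0.102), and without N421K (0.0880). Over the 5 genes the log2 difference had a median of -0.15, -0.11, and -0.01 at the successive times, where the medians of all genes were 0.01, 0.00, and 0.00. At 8 h none of the 5 genes was called and none had an unadjusted p under 0.05, against 1.44% of 8801 genes called, and DESeq2 and limma-voom called 0 of them too.

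**Figure D2:**
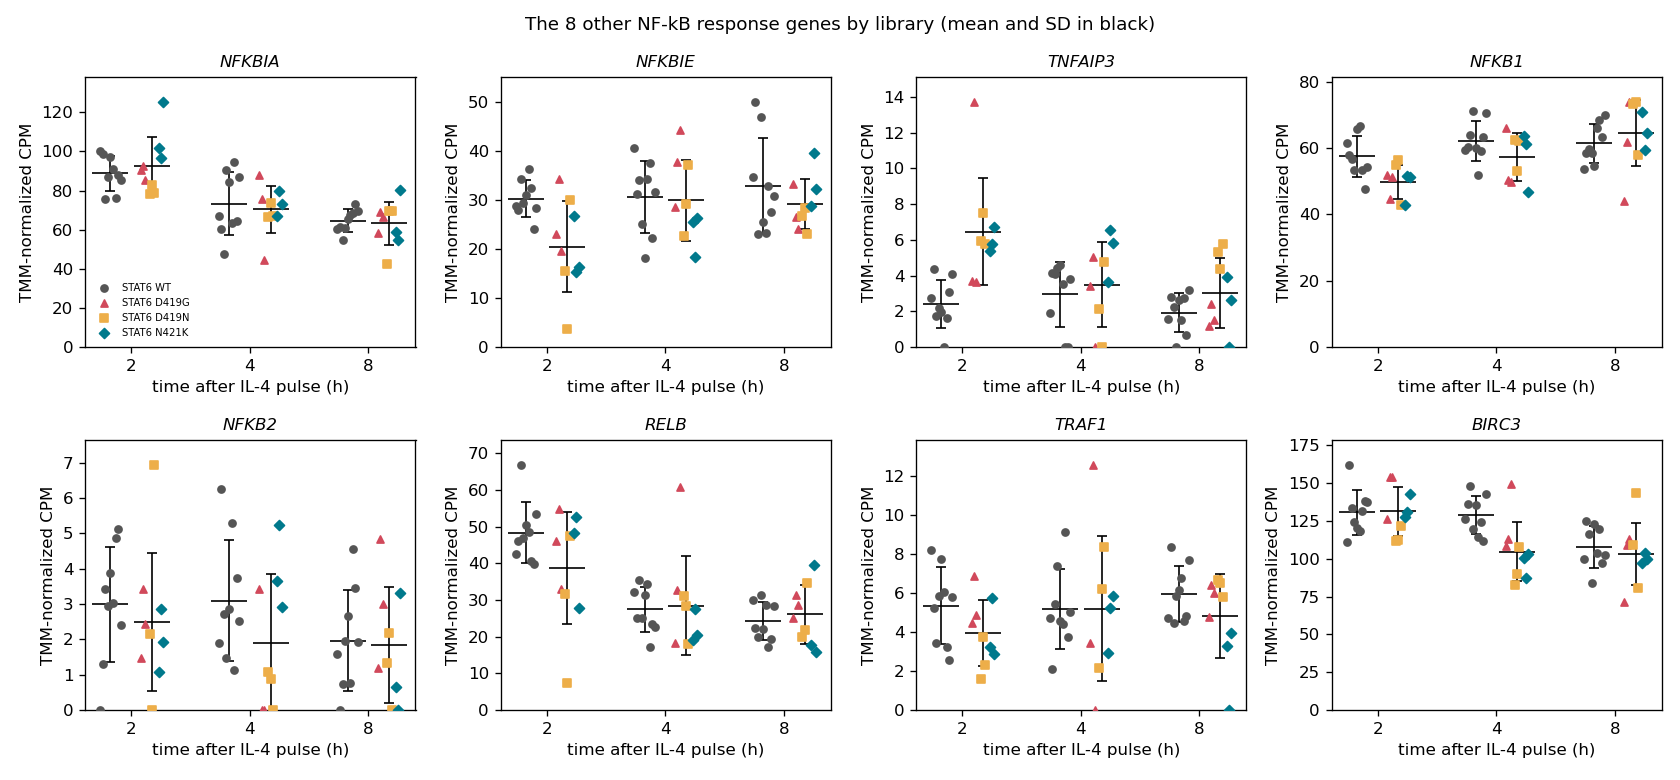
Levels of the 8 other NF-kB response genes in TMM-normalized CPM against time after the IL-4 pulse in hours, with the symbols of STAT6 WT and the 3 mutant lines and black lines for the mean and SD of 9 libraries. The genotypes overlap in every panel, with NFKBIE lower in STAT6 MUT at 2 h (median 19.6 against 29.3 CPM) and BIRC3 lower at 4 h (103 against 127 CPM).

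**Figure D3:**
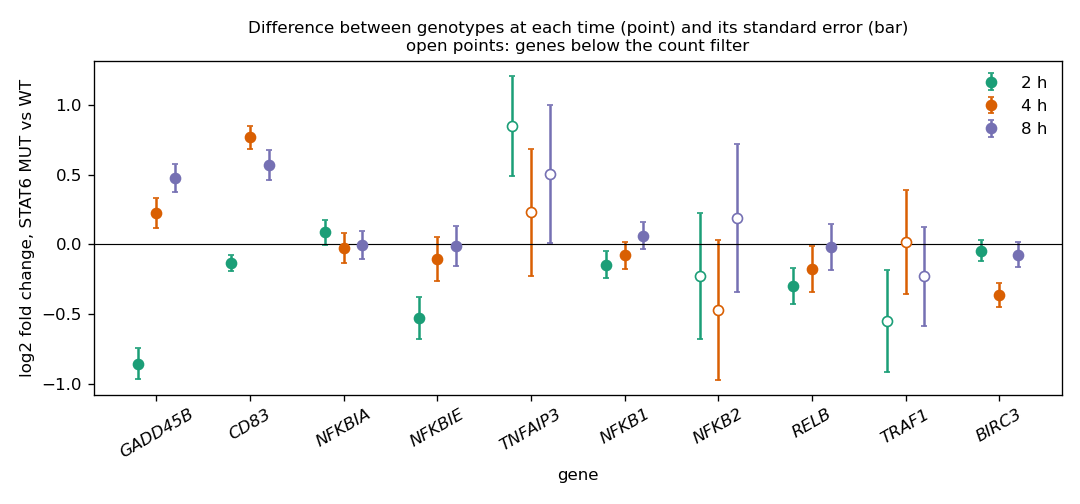
Fitted log2 fold change of STAT6 MUT against STAT6 WT for each of the 10 genes at 2, 4, and 8 h, with bars of 1 standard error and open points for TNFAIP3, NFKB2, and TRAF1, which were below the count filter. GADD45B runs from -0.86 to 0.48 and CD83 from -0.13 to 0.77, whereas the filled points of the other genes lie between -0.53 (NFKBIE at 2 h) and 0.09.

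The time course within each genotype was read next. From 2 to 8 h in STAT6 WT, 3 of the 5 list genes were called, all lower, beside 13.4% of 9507 genes called lower and 27.6% called in either direction. RELB dropped by a log2 change of -1.02 (SE 0.14, adjusted p = 1.94e-08 in edgeR's test), NFKBIA by -0.46 (SE 0.10, adjusted p = 9.63e-05), and BIRC3 by -0.31 (SE 0.08, adjusted p = 0.00177). NFKB1 (0.16, SE 0.08, adjusted p = 0.143) and NFKBIE (0.03, SE 0.14, adjusted p = 0.911) were not called. CD83 (-1.78) and GADD45B (-0.47) were also lower at 8 h in STAT6 WT, values that enter the change of the genotype difference that picked them.

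In STAT6 MUT all 5 were called between 2 and 8 h, beside 33.8% of all genes. The same 3 genes were lower, RELB by -0.74 (SE 0.17), NFKBIA by -0.55 (SE 0.10), and BIRC3 by -0.34 (SE 0.09) on the log2 scale (adjusted p at most 0.00116), beside 16.8% of all genes called lower. NFKBIE (0.54, SE 0.17, adjusted p = 0.00677) and NFKB1 (0.37, SE 0.09, adjusted p = 0.000961) were higher, the direction of GADD45B (0.86), beside 17% of all genes called higher. Whether the rises of NFKBIE and NFKB1 were particular to STAT6 MUT was covered by the change of the genotype difference from 2 to 8 h given above, which was not called for either. Without N421K, 2 of the 5 genes were called in STAT6 MUT, beside 2305 of 9555 genes (3212 of 9507 with all lines). NFKBIE then had an adjusted p of 0.185, NFKB1 of 0.0570, and BIRC3 of 0.0670 in edgeR's test. BIRC3 was also lost without replicate 3 (0.0550) and without D419G (0.0510), where 2225 of 9763 and 2445 of 9835 genes were called.

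Over the 12 groups of line and time, the mean levels of NFKB1 and NFKBIE ran with those of GADD45B (Pearson r = 0.68 and 0.66). Those of NFKBIA, RELB, and BIRC3 ran with those of CD83 (r = 0.74, 0.70, and 0.59), whereas GADD45B and CD83 had an r of -0.40. With the other gene of the pair each r was negative. It was -0.65 for NFKBIA, -0.46 for BIRC3, and -0.22 for RELB with GADD45B, and -0.70 for NFKB1 and -0.47 for NFKBIE with CD83. The share of all genes with such r was not computed. All genes share the 54 libraries, and these values, which mix time and genotype, are a description. Among all genes tested, METRNL (r = 0.91), TGIF2 (0.91), VPS13D (0.88), KLHDC4 (0.87), and MSL1 (0.87) had the means most like those of GADD45B. Those most like CD83 were ATF4 (0.95), IDI1 (0.94), SQLE (0.94), SRSF6 (0.94), and INSIG1 (0.93). None of the NF-kB response genes with enough counts was among the 5 most like either. TNFAIP3, NFKB2, and TRAF1 could not be, as only tested genes were ranked.

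The wider pathway was read from a list of 100 further genes by role, of which 92 were in the table and 57 were tested across time points. In the joint test, 3 of the 57 were called (JUNB, DUSP2, and CXCR5), or 5.26% beside 0.989% of all genes. The list was chosen with earlier results of these data known. Shares over it, here and below, are therefore not independent evidence. No receptor, ligand, adaptor, IKK subunit, Rel subunit, or inhibitor on the list was called, out of 5, 2, 17, 3, 2, and 9 tested, and all 3 came from the 18 target genes tested. REL and RELA, the main activating subunits in B cells, had adjusted p of 0.741 and 0.662.

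JUNB encodes an AP-1 subunit. Like GADD45B, its fitted difference was negative at 2 h and positive at 8 h, the latter not called. At 2 h it was at 28.8 to 51.9 CPM (median 43.8) in STAT6 WT and 25.8 to 37.7 CPM (median 31.2) in STAT6 MUT, and at 8 h at 22.1 to 39.1 CPM (median 29.2) and 14.9 to 42.8 CPM (median 36.2), with overlap each time. The log2 difference of JUNB moved from -0.49 (SE 0.11, adjusted p = 0.00215) at 2 h to 0.38 (SE 0.14, adjusted p = 0.120) at 4 h and 0.37 (SE 0.12, adjusted p = 0.122) at 8 h. Its change from 2 to 8 h was 0.86 (SE 0.17, adjusted p = 0.000588 in edgeR's test), and the joint test stayed past the threshold in all 21 alternatives.

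DUSP2, a nuclear phosphatase of MAP kinases, was at 25.6 to 48.0 CPM (median 34.6) in STAT6 WT and 10.4 to 22.6 CPM (median 15.3) in STAT6 MUT at 2 h, with no overlap, as in 0.621% of genes at that time. Its log2 difference was -1.07 (SE 0.15, adjusted p = 3.06e-07) at 2 h and -0.23 (SE 0.18, adjusted p = 0.598) at 8 h, so that it came nearer to STAT6 WT without turning. CXCR5, the chemokine receptor that guides B cells into follicles, was likewise separated at 2 h, at 148 to 190 CPM (median 173) against 94.0 to 127 CPM (median 119). Its log2 difference was -0.57 (SE 0.07, adjusted p = 6.56e-08) at 2 h, -0.42 (SE 0.08, adjusted p = 0.000428) at 4 h, and -0.06 (SE 0.07, adjusted p = 0.761) at 8 h. The joint test of DUSP2 (adjusted p = 0.0262) was lost in 8 of 21 alternatives, with adjusted p of 0.0684 to 0.140 when 1 mutant line was left out and of 0.303 without replicate 3. That of CXCR5 (adjusted p = 0.00187) was lost without replicate 1 (0.0546) and without D419N (0.0575).

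At single times, 8 of 53 wider-list genes were called at 2 h (15.1%, beside 8.59% of all genes), 5 of 48 at 4 h (10.4% beside 3.97%), and 1 of 50 at 8 h (2.00% beside 1.44%). At 2 h, 7 of the 8 were lower in STAT6 MUT, beside 404 of the 743 called among all genes. The median log2 difference over the tested list genes was -0.05, and that over all genes was 0.01. GADD45A, the paralog of GADD45B, stood at 75.2 to 121 CPM (median 89.8) in STAT6 MUT at 2 h, above the 44.6 to 69.8 CPM (median 62.5) of STAT6 WT, with no overlap. Its log2 difference of 0.61 (SE 0.10, adjusted p = 4.60e-06) was followed by 0.23 (SE 0.10, adjusted p = 0.259) at 4 h and 0.52 (SE 0.10, adjusted p = 0.00138) at 8 h. The sign was opposite to that of GADD45B at 2 h and the same at 8 h. GADD45A also differed among the mutant lines (adjusted p = 0.0159), with log2 differences from STAT6 WT over the 3 times of 0.71 for D419G, 0.36 for N421K, and 0.35 for D419N.

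PRKCB, the protein kinase C that links the B cell receptor to NF-kB, was lower in STAT6 MUT at 2 h (-0.87, SE 0.15, adjusted p = 4.45e-05) and at 4 h (-0.96, SE 0.15, adjusted p = 2.64e-05). PRKCB also differed among the lines (adjusted p = 8.40e-05), with log2 differences from STAT6 WT of -1.39 for N421K, -0.69 for D419N, and -0.37 for D419G. The BAFF receptor gene TNFRSF13C was lower at 4 h (-0.53, SE 0.11, adjusted p = 0.00196), whereas IRF1 (0.71, SE 0.18, adjusted p = 0.0104) and the Toll-like receptor adaptor MYD88 (0.45, SE 0.12, adjusted p = 0.0240) were higher. Without N421K these 3 were not called at 4 h, with adjusted p of 0.112, 0.275, and 0.139. Without replicate 2, TNFRSF13C (0.0621), IRF1 (0.151), and MYD88 (0.0905) were not called either, and MYD88 was also lost without replicate 1 (0.115), replicate 3 (0.0580), or D419G (0.0559).

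Over time, 21 of 57 wider-list genes were called from 2 to 8 h in STAT6 WT, 6 higher and 15 lower (36.8% beside 27.6% of all genes). In STAT6 MUT, 24 were called, 14 higher and 10 lower (42.1% beside 33.8%). Among all genes called, 1345 were higher and 1275 lower in STAT6 WT, and 1617 higher and 1595 lower in STAT6 MUT. The median log2 change of the tested list genes was -0.12 in STAT6 WT and 0.06 in STAT6 MUT, with medians over all genes of 0.00 and 0.01.

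**Figure D4:**
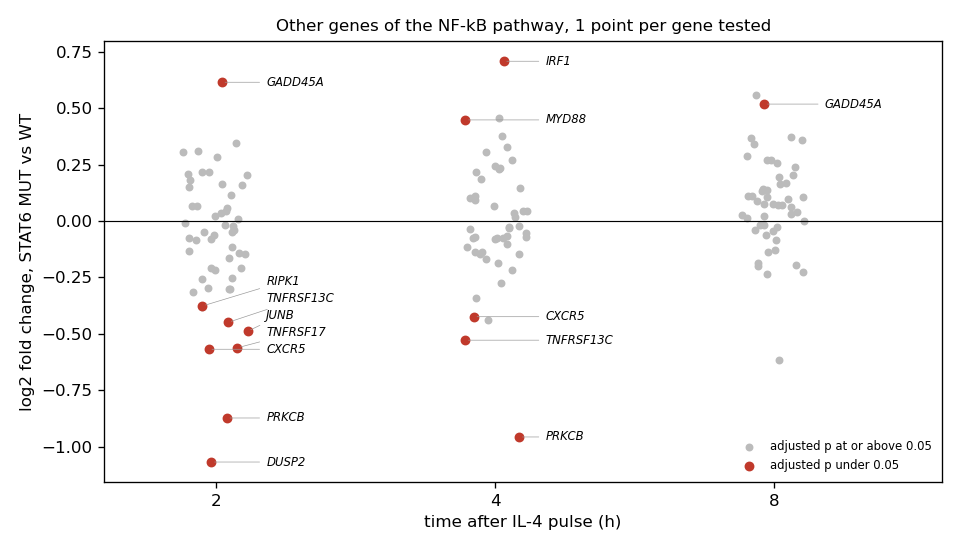
Log2 fold change of STAT6 MUT against STAT6 WT at 2, 4, and 8 h for the wider-list genes tested, 1 point per gene, spread sideways for visibility. Red points are named and had an adjusted p under 0.05, 8 at 2 h, 5 at 4 h, and GADD45A alone at 8 h. At 2 h, 7 of the 8 were lower, beside 404 of the 743 called among all genes.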

How the data were processed

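The authors prepared prime-seq libraries from OCI-Ly1 cells, sequenced them on an Illumina HiSeq system, and ran the Drop-seq pipeline. They deposited raw UMI counts per Ensembl gene and library, neither normalized nor filtered. The submitters' processing notes name the build hg 38, and no aligner, annotation, or strand setting is given in the sources used here. The table had 54 libraries and 31835 identifiers (24867 matched to a symbol), 0 unused columns, and 0 lines without an identifier. Totals ran from 161518 to 2978715 UMIs. Among 135 pairs of libraries of one condition, none differed by so little that it could be one library counted again (chi-square over its degrees of freedom, 1.07 to 3.98).

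Counts were tested with edgeR 4.0.16 (quasi-likelihood test, TMM, filterByExpr) in R 4.3.3, with Benjamini-Hochberg adjustment over all genes tested and a threshold of 0.05. Each time was fitted with its 18 libraries. The interaction, the time courses, and the sizes of change between times came from a model of 6 groups of genotype and time, and the mutant lines from a model of time and line, each with all 54 libraries. Intervals are 95% intervals of 1.96 SE. Log2 CPM used a prior count of 2. Exact permutation tests used scipy 1.17.1, and plots used Python 3.11.15 and matplotlib 3.10.9. Gene positions were taken from the GRCh38 annotation.

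The members and lists were chosen with earlier results of these data known, so counts over them are not independent evidence. Named genes were the 10 members, the wider-list genes called in the joint test, the up to 3 largest calls in each direction at each time, and the 5 genes with the most similar group means to GADD45B and CD83. On simulated counts with 200 genes changed by absolute log2 fold changes of 1 to 1.5, the interaction recovered 193 of 198 changed genes among 9395 tested and called 8 unchanged genes. The comparison at 2 h recovered 183 of 184 among 8704 (4 unchanged called), STAT6 WT over time 197 of 198 among 9403 (16), and the lines 197 of 199 among 9402 (12). Smaller changes were not simulated.

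Alternatives were DESeq2 1.42.0, limma-voom (limma 3.58.1), DESeq2's size factors, total counts, no count filter, a mean count of at least 10, a prior count of 0.5, a replicate block, culture as a random effect, all 54 libraries for single times, and leaving out each replicate number, each mutant line, or the 8 libraries under 0.5 of the median. At each time, leaving out replicate number 1, 2, or 3 removed 3 mutant libraries and 1 wild-type library, and leaving out a number from 4 to 9 removed 1 wild-type library.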

Additional observations from a re-analysis of the deposited data

Results flagged for a closer look

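For GADD45B the difference of STAT6 MUT from STAT6 WT changed by 1.33 on the log2 scale between 2 and 8 h, and for CD83 by 0.70, the contrast that picked both genes. In the joint test across times, JUNB (0.86), DUSP2 (0.83), and CXCR5 (0.51) were called as well, with these changes from 2 to 8 h.

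A single library stood far from the other 8 of its genotype and time in 7 of 60 groups of gene, genotype, and time. With normal values of equal spread the limit used is passed in about 1 in 20 groups. These libraries differ in depth, share genes and libraries between groups, and pool the mutant lines, so that rate need not hold here. NFKBIA was at 125 CPM in N421K replicate 3 at 2 h (261 UMIs). TNFAIP3 was at 13.7 CPM in D419G replicate 2 at 2 h (4 UMIs), NFKB2 at 6.94 CPM in D419N replicate 3 at 2 h (6 UMIs), and RELB at 66.9 CPM in STAT6 WT replicate 3 at 2 h (39 UMIs). The other 3 values came from 1 shallow library of 175878 UMIs, D419G replicate 3 at 4 h. There NFKBIA was at 44.3 CPM (8 UMIs), RELB at 60.9 CPM (11 UMIs), and BIRC3 at 149 CPM (27 UMIs). With the 8 shallowest libraries left out, the log2 difference of BIRC3 at 4 h was -0.40 (adjusted p = 0.00157 in edgeR's test).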

How the results depend on the processing

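GADD45B and CD83 kept the direction of their values in all alternatives run. The change from 2 to 8 h ranged from 1.20 to 1.43 for GADD45B and from 0.54 to 0.84 for CD83. Of 288 alternative counts, 258 stayed within 1.5 times the reported count and 30 did not. Of 1749 alternative values of single genes, 1639 were kept, 49 lost the threshold, 2 gained it, and 59 turned, all of the last being differences that were not called. A tested value was kept if its direction and side of the threshold stayed, or the side alone in joint tests. An untested value of GADD45B or CD83 was kept if it moved by less than the gene's mean SD of log2 CPM within groups. The cause of these changes was not tested. With total counts, 264 genes were higher and 506 lower at 2 h (339 and 404 with TMM), and in STAT6 MUT 64.7% of calls from 2 to 8 h were higher (50.3% with TMM).

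Whether the replicate numbers mark shared cultures is not given in the sources used here, and little shared variation by number was seen. Libraries of one line and number correlated over 0.1 in 7 of 54 pairs of times (median -0.01, highest 0.32). Those of one number did so in 10 of 54 pairs of lines (median 0.01, highest 0.27). These values cannot show that no cultures were shared. With the replicate block, 200 genes were called at 2 h, 61 at 4 h, and 19 at 8 h, with 0 members called at 2 and at 4 h. Most replicate numbers had a STAT6 WT library but no STAT6 MUT library. At single times, the block therefore takes most STAT6 WT libraries out of the genotype difference. The part of this loss of libraries in the lower counts and the lost calls was not tested. Named calls lost with the block, with their edgeR adjusted p, were NFKBIE (0.142) and JUNB (0.232) at 2 h, BIRC3 (0.0899), TNFRSF13C (0.129), IRF1 (0.463), and MYD88 (0.183) at 4 h, and GADD45A (0.310) at 8 h, each in its main direction. NFKB2 at 2 h was then at 0.72, NFKBIA at 4 h at 0.29, and NFKBIA at 8 h at 0.22, against -0.23, -0.02, and -0.01.

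Without N421K, 42 genes were called in the joint test (94 with all lines) and 2305 in STAT6 MUT from 2 to 8 h (3212). At single times 290 were called at 2 h (743), 92 at 4 h (342), and 74 at 8 h (127). Members called were 0 at 2 and 4 h and 2 in STAT6 MUT over time. At 8 h, 236 genes were called from all 54 libraries and 239 without a count filter. Leaving out 1 replicate number gave 44 to 100 genes in the joint test, 428 to 797 at 2 h, 161 to 359 at 4 h, 53 to 300 at 8 h, and 48 to 236 among lines, with 0 to 1 member at 2 h and 0 to 1 at 4 h.

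The other log2 differences that turned were none of them called. Without D419N, BIRC3 at 2 h was at 0.022, NFKB2 at 4 h at 0.0082, NFKBIA at 0.012 at 4 h and 0.047 at 8 h, NFKBIE at 8 h at 0.019, and TRAF1 at 4 h at -0.077. Without D419G, CXCR5 at 8 h was at 0.0018, NFKB2 at 8 h at -0.20, NFKBIE at 8 h at 0.026, and TRAF1 at 4 h at -0.011. Without N421K, NFKBIA at 2 h was at -0.089, NFKBIE at 4 h at 0.034, RELB at 8 h at 0.17, TNFAIP3 at 4 h at -0.26, and TRAF1 at 8 h at 0.058. Without the shallow libraries, NFKBIE was at 0.024 at 8 h and -0.0028 in STAT6 WT over time, and TRAF1 at 4 h at -0.069. With limma-voom these 3 were at 0.032, -0.0056, and -0.040. With culture as a random effect NFKBIE in STAT6 WT over time was at -0.0039, and with total counts NFKBIA at 8 h was at 0.0060.

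Leaving out 1 replicate number gave -0.12 to 0.0061 for BIRC3 at 2 h and -0.15 to 0.011 at 8 h, and -0.55 to 0.029 for NFKB2 at 2 h and -0.24 to 0.65 at 8 h. NFKBIA ranged from -0.0064 to 0.17 at 2 h, -0.086 to 0.026 at 4 h, and -0.17 to 0.14 at 8 h. NFKBIE ranged from -0.22 to 0.055 at 4 h, -0.091 to 0.043 at 8 h, and -0.030 to 0.13 in STAT6 WT over time. RELB at 8 h ranged from -0.18 to 0.13 and TRAF1 at 4 h from -0.34 to 0.38. Depth limits TNFAIP3, NFKB2, and TRAF1, and the adjusted p of TNFAIP3 at 2 h ranged from 0.105 to 0.774 over the alternatives.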
